A study of Rattus norvegicus with 16 samples.

Results

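The 5 complexes of oxidative phosphorylation sit in the inner mitochondrial membrane, and most of their subunits are encoded in the nucleus. The genes described here are the nuclear subunit genes whose symbols begin with Nduf (the subunit families a, b, c, s and v), Sdh (a to d), Uqcr, Cox4 to Cox8 or Atp5. The counts cover 17168 genes. Of these, 80 had a matching symbol, and the 73 with at least 10 counts in at least 4 libraries were kept. These are 34 of 35 matches for complex I, 4 of 4 for complex II, 8 of 8 for complex III, 10 of 16 for complex IV and 17 of 17 for complex V. The 7 genes left out were Ndufa4l2, Cox4i2, Cox6a2, Cox6b2, Cox6c-ps1, Cox8b and Cox8c, which had 0 to 8 counts in any library. All 73 also passed the filter of the test, and the lowest count of any of them in any library was 36, so none entered through a high level in 1 group only.

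Liver RNA came from Sprague Dawley rats that were wild type or Tspo knockout and ate chow, or a diet lacking methionine and choline (MCD), from 12 weeks of age for 8 weeks, so that all rats were 20 weeks old. Tspo encodes a cholesterol-binding protein of the outer mitochondrial membrane, and the MCD diet is used to model steatohepatitis, an inflamed fatty liver. The 4 groups (wild type on chow, knockout on chow, wild type on MCD, knockout on MCD) had 4 libraries each, with 8745756 to 15762660 counts per library. The labels give no details of the knockout allele and do not say whether a library is 1 animal, so p-values measure only the spread between libraries, which may be technical.

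Complex I takes electrons from NADH and complex II from succinate. Complex III passes them from ubiquinol to cytochrome c, complex IV from cytochrome c to oxygen, and complex V uses the resulting proton gradient to make ATP. In complex I a conserved set of core subunits holds the flavin and the iron-sulfur clusters, and many accessory subunits surround it. Liver depends on this pathway for fat oxidation, urea synthesis and glucose production. The subunits encoded in mitochondrial DNA were not analysed here.

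Before the results, 3 libraries need to be named. Tspo, measured in CPM (a gene's count over the library total, after a TMM scaling factor, times 1e+06), was at 3.61 to 5.23 in the wild type on chow and 7.63 to 9.34 in the wild type on MCD. In the knockout it was at 0.656 to 1.29 in 3 of the chow libraries and at 1.02 to 1.66 in 3 of the MCD libraries. The library labelled knockout on chow number 4 held 4.42 CPM and the library labelled knockout on MCD number 1 held 4.17, both as high as the wild type on chow, so their labels go against the targeted gene. These libraries also stood apart in the subunit genes. Number 4 of the wild type on chow shared their pattern across genes to a lesser extent, and main counts are also given without all 3, called below the 3 libraries that stand apart. Defining markers of hepatocytes were present in every library (summed level of 10 genes 104351 to 247406 CPM), as fits the label liver.

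On the MCD diet most subunit genes were lower than on chow, relative to the bulk of genes. In the wild type 47 of 73 were called lower and 1, Ndufs1, was called higher (edgeR's quasi-likelihood test on all 11162 genes tested, where a call needs a p under 0.05 after Benjamini-Hochberg adjustment). Of all genes tested 15.9% were called lower and 18.2% higher in that comparison. In the knockout 57 were called lower and again only Ndufs1 higher, where 18.5% of all genes tested were lower and 21.9% higher. In either direction 34.1% and 40.4% of all genes tested were called in the respective genotypes. The median log2 fold of the 73 was -0.83 in either genotype, beside -0.00 (wild type) and 0.04 (knockout) for all genes tested. In all, 45 genes were lower in both genotypes, which is 95.7% of those lower in the wild type and 78.9% of those lower in the knockout. Over all genes tested, 12.4% were lower in both. In bulk liver, fewer cells of a type and less RNA per cell cannot be told apart.

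The size of the difference depended on the scaling. With library totals alone and no scaling factor, the median of all genes tested rose to 0.53 (wild type) and 0.77 (knockout) and that of the subunit genes to -0.29 and -0.10. Such a change of scale moves all genes of a library alike, so the gap between the medians stays nearly the same by construction (-0.81 and -0.87, beside -0.83 and -0.87 with TMM factors). On that scale 15 subunit genes were called lower and 4 higher in the wild type (4.55% and 43.1% of all genes tested). In the knockout 14 were lower and 6 higher (3.63% and 57.8%). Each fall below is thus a fall against the rest of the genes, not of the amount per cell.

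Without the 3 libraries more genes were called and the medians moved little. In the wild type 58 of 73 were then called lower, beside 24.7% of all genes tested, with a median of -0.81. All libraries share 1 estimate of the spread, so knockout libraries bear on the wild-type calls as well. With only wild type on chow number 4 left out, 37 were called lower in the wild type (15.9% of all genes tested). With only knockout on chow number 4 left out, 57 were (19.9%). In the knockout 67 were called lower, beside 23.8%, with a median of -0.92. Ndufs1 was again the 1 member called higher in each genotype (25.8% and 27.9% of all genes tested). The 3 libraries were set apart partly by their values in these same genes, so leaving them out narrows the spread. The median SD of the 73 genes fell from 0.35 to 0.16 log2 units in the knockout on chow. It fell from 0.32 to 0.11 in the knockout on MCD and from 0.29 to 0.26 in the wild type on chow. Calls and p-values without the 3 libraries are thus no separate support for the falls. In the wild type the 4 MCD libraries lay wholly below the 4 chow libraries for 58 of the 73 genes (18% of all genes tested), and above them for Ndufs1 alone (20.1%). In the knockout 32 genes were wholly lower (14%) and none wholly higher (17.6%).

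**Figure D1:**
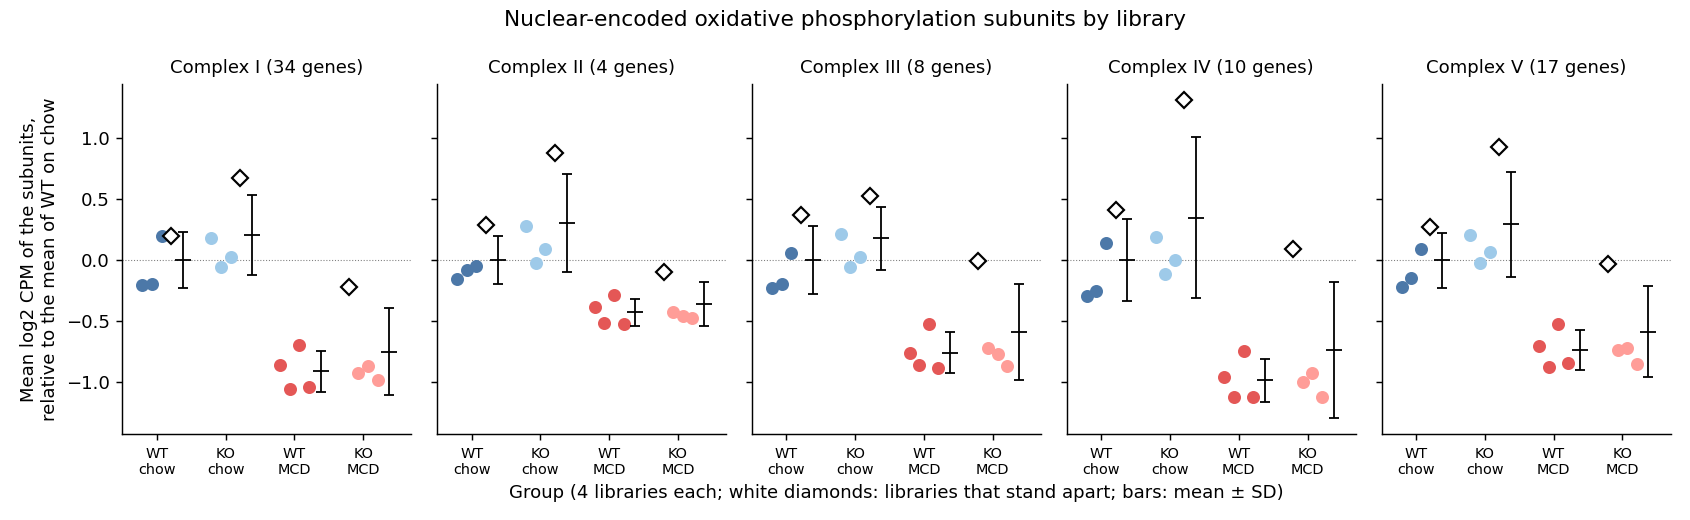
Mean log2 CPM of the subunit genes of each complex in each library (y axis), relative to the mean of the wild type on chow, by group (x axis); points are libraries, white diamonds the 3 libraries that stand apart, and bars the mean ± SD of 4 libraries. All 4 wild-type MCD libraries and 3 of 4 knockout MCD libraries lie below every chow library in complexes I to V, and the library labelled knockout on MCD number 1 lies at or near the level of the chow libraries.

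The plot of complex means by library shows this for each complex. For complex IV, the oxidase at the end of the chain, the mean log2 level relative to the wild type on chow was -0.30, -0.25, 0.14 and 0.41 in the wild type on chow. The wild type on MCD was at -0.96, -1.12, -0.75 and -1.12. The knockout on chow was at 0.19, -0.11, -0.00 and 1.32, the last being the one whose Tspo level goes against its label. In the knockout on MCD the library labelled number 1 was at 0.09 and the other 3 at -1.12 to -0.93. Apart from that library, the MCD libraries of both genotypes lay below every chow library.

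Complex I, the NADH dehydrogenase, had 25 of 34 genes lower and 1 higher in the wild type, with a median log2 fold of -0.95. The knockout had 29 lower and 1 higher, with a median of -0.90. The accessory subunits were lower in 22 of 27 genes (median -1.06) in the wild type and 23 of 27 (median -0.98) in the knockout.

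In the wild type the 4 genes with the smallest p were all accessory subunits of complex I's membrane arm: Ndufb11, Ndufa11, Ndufb4 and Ndufb6. The first 3 of these also led in the knockout. For these genes, and for Ndufs1, which was chosen after its values were seen because it went the other way, the 250 bases before the gene's start are shown (RefSeq, assembly GRCr8, printed on the gene's strand). Capitals mark matches to a short form of the binding motif of NRF1 (GCATGCGC) or of ETS factors such as GABPA (CCGGAAG), on either strand. NRF1 and GABPA are transcription factors known to act on many respiratory chain genes. The regions are chrX:4126067-4126316 (plus strand) for Ndufb11, chr9:1637364-1637613 (plus) for Ndufa11, chr11:76568928-76569177 (plus) for Ndufb4, chr5:60206153-60206402 (minus) for Ndufb6 and chr9:72073606-72073855 (minus) for Ndufs1.
Ndufb11: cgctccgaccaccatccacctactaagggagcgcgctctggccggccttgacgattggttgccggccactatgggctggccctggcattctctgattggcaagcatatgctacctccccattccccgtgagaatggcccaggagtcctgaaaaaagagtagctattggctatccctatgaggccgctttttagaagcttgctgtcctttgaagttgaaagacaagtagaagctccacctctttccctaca
Ndufa11: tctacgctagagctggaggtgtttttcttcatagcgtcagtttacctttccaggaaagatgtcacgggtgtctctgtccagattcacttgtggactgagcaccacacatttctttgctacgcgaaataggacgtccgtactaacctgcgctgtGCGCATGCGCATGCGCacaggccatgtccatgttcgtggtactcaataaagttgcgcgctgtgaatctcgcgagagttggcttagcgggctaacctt
Ndufb4: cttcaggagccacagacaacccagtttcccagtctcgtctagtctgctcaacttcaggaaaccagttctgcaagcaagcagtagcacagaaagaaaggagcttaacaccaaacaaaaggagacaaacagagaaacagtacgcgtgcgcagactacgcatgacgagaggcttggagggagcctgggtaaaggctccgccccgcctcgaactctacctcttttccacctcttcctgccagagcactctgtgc
Ndufb6: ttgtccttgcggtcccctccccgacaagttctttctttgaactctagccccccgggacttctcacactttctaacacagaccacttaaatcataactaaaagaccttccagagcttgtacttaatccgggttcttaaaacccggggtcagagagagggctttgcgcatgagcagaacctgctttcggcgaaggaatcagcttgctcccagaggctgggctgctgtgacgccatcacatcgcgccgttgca
Ndufs1: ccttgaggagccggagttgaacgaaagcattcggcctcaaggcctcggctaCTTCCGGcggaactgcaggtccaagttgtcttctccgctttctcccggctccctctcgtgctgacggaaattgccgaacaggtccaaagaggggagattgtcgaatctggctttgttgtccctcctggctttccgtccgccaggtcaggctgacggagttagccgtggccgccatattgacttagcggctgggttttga

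The Ndufa11 promoter held 4 overlapping NRF1 matches, which begin -97 to -89 bases from the start, because the motif repeats and is nearly its own reverse complement. Ndufs1 held 1 ETS match on the opposite strand at -199, and Ndufb11, Ndufb4 and Ndufb6 held neither motif, nor that of YY1 (AAGATGGCG), in this window. Of the 73 members all matched RefSeq by symbol (56) or synonym (17), and 63 had a promoter in the table, counted over 250 bases before to 50 after the start. The NRF1 motif was found in 8 of 63 (12.7%, beside 2.66% of 27457 promoters), the ETS motif in 19 (30.2%, beside 9.22%) and the YY1 motif in 10 (15.9%, beside 1.93%). At least 1 of the 3 motifs was present in 21 of 40 such members lower in both genotypes (52.5%), in 2 of 11 lower in 1 genotype (18.2%) and in 6 of 12 lower in neither. These are matches of letters, not sites.

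Values of 4 libraries are given in the order of their numbers. Ndufb11 held 113, 115, 159 and 112 CPM in the wild type on chow and 52.9, 51.1, 56.3 and 49.1 on MCD. In the knockout it held 131, 109, 114 and 127 CPM on chow and 72.2, 53.2, 54.2 and 46.8 on MCD. Every MCD library was below every chow library, in either genotype, and the 3 libraries that stand apart stayed on the side of their diet. The log2 fold was -1.25 ± 0.16 (SE; edgeR's quasi-likelihood test, adjusted p = 4.47e-05) in the wild type. In the knockout it was -1.09 ± 0.16 (edgeR's quasi-likelihood test, adjusted p = 1.16e-04). Close copies of Ndufb11 and Ndufb4 are annotated in GRCr8, and a read that matches several copies is divided among them in expected counts, so the levels of both are uncertain.

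Ndufa11, which helps to hold the membrane arm together, held 155, 148, 201 and 129 CPM in the wild type on chow and 65.6, 56.2, 76.6 and 56.4 on MCD. The knockout held 165, 147, 142 and 161 CPM on chow and 90.0, 65.5, 70.2 and 58.1 on MCD. The groups did not overlap within either genotype. It was 2.48-fold lower in the wild type (log2 fold -1.31 ± 0.17, edgeR's quasi-likelihood test, adjusted p = 5.75e-05) and 2.16-fold lower in the knockout (-1.11 ± 0.17, adjusted p = 1.85e-04). Ndufb4 was 2.73-fold and Ndufb6 2.09-fold lower in the wild type, and 2.54-fold and 1.93-fold lower in the knockout. Ndufa1, a small subunit of the membrane arm, had the lowest log2 fold of complex I in the wild type (-1.78 ± 0.37) and was at -1.80 ± 0.37 in the knockout.

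Ndufs1, the largest iron-sulfur subunit of the matrix arm, went the other way. It held 61.2, 69.3, 45.5 and 64.6 CPM in the wild type on chow and 93.0, 103, 107 and 88.1 on MCD. Knockout libraries were at 72.5, 72.1, 75.6 and 48.7 CPM on chow and 73.7, 103, 89.5 and 103 on MCD. The wild-type groups did not overlap, and the knockout groups did, through the library labelled knockout on MCD number 1. The log2 fold was 0.70 ± 0.17 in the wild type (edgeR's quasi-likelihood test, adjusted p = 0.00618). In the knockout it was 0.46 ± 0.17 (edgeR's quasi-likelihood test, adjusted p = 0.0457), a call that was lost on leaving out any of 12 single libraries (adjusted p = 0.125 without knockout on chow number 4) and kept without the 3 libraries (adjusted p = 0.0198).

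Of the other core subunits, Ndufs7 and Ndufs8, which carry the iron-sulfur clusters next to ubiquinone, fell in both genotypes. Ndufs7 had a log2 fold of -0.94 ± 0.17 in wild-type rats and -0.72 ± 0.17 in knockout rats, and Ndufs8 had -0.72 ± 0.16 and -0.63 ± 0.16. Ndufv1, which binds NADH and the flavin, Ndufv2 and Ndufs3 were called in the knockout alone. Their log2 folds were -0.40 ± 0.20, -1.32 ± 0.51 and -0.64 ± 0.29 in the wild type and -0.65 ± 0.20, -1.89 ± 0.52 and -0.98 ± 0.29 in the knockout, and the difference between genotypes was called for none of them. When knockout on chow number 4 was left out, these 3 genes were no longer called in the knockout (for example -0.36 for Ndufv1 and -0.57 for Ndufs3). Without the 3 libraries that stand apart all 3 genes were called lower there.

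Ndufa4, which is grouped with complex I by its symbol and is now known as a subunit of complex IV, had a wide spread. It held 247, 319, 398 and 647 CPM in the wild type on chow and 123, 104, 153 and 108 on MCD. The levels in the knockout were 438, 320.1, 382 and 2553 CPM on chow and 413, 122, 116 and 98.8 on MCD. The library labelled knockout on chow number 4 was several times above every other library, and the library labelled knockout on MCD number 1 was at the level of chow. The log2 fold was -1.72 ± 0.62 in wild-type rats and -2.30 ± 0.63 in knockout rats (edgeR's quasi-likelihood test, adjusted p = 0.0413 and 0.00917), and -1.40 and -1.76 without the 3 libraries. With only knockout on chow number 4 left out, the knockout value was -1.02 and not called, and with only wild type on chow number 4 left out, the wild-type value was -1.40 and not called. Its isoform Ndufa4l2 was among the genes left out for low counts. Ndufa10 and Ndufa10l1 are close copies that may share reads. Ndufa10 had -0.67 ± 0.14 and -0.64 ± 0.14 and was called in each genotype, and Ndufa10l1 had 0.08 ± 0.19 and 0.22 ± 0.19 and was called in neither.

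**Figure D2:**
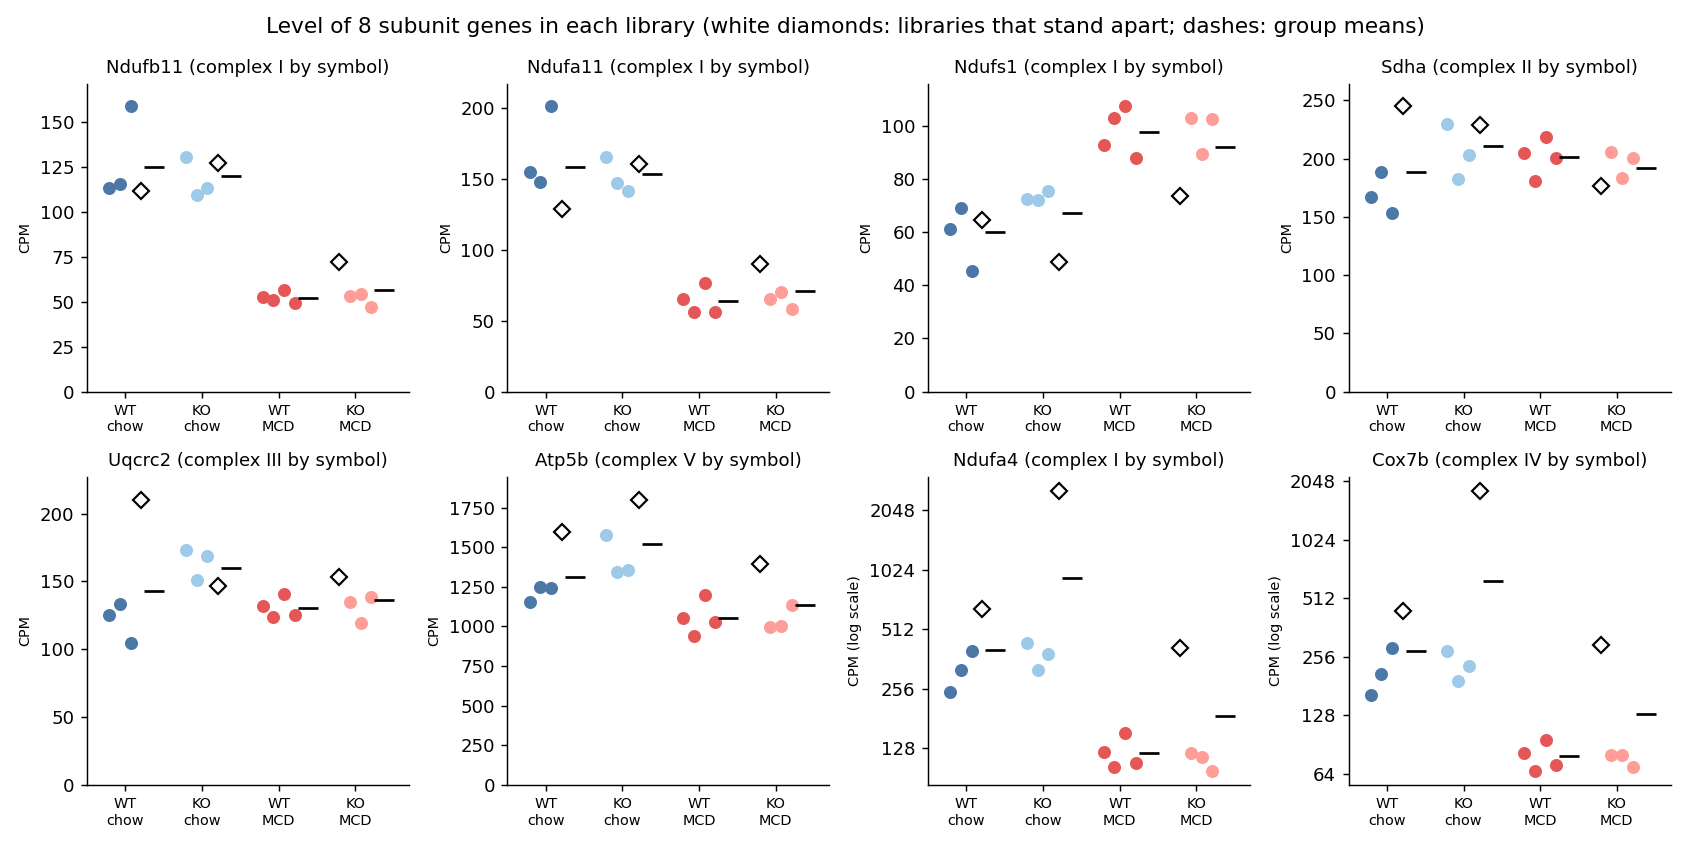
CPM of 8 subunit genes (y axis, from 0; log scale for Ndufa4 and Cox7b) in each library by group (x axis); points are libraries, white diamonds the 3 libraries that stand apart, and dashes group means. Ndufb11 and Ndufa11 are lower in every MCD library, Ndufs1 is higher in all 4 wild-type MCD libraries, Sdha and Uqcrc2 overlap between diets, and Ndufa4 and Cox7b reach 2553 and 1828 CPM in the library labelled knockout on chow number 4.

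Complex II, succinate dehydrogenase, also works in the citric acid cycle. It had 1 of 4 genes lower in the wild type (median -0.57) and 3 of 4 in the knockout (median -0.80). Sdhd, a membrane anchor, fell in both, from 143, 146, 171 and 168 CPM to 104, 92.9, 109.9 and 87.7 in the wild type and from 194, 151, 152 and 226 to 111, 103, 100.2 and 98.8 in the knockout. The MCD libraries lay below the chow libraries throughout, with log2 folds of -0.67 ± 0.15 and -0.81 ± 0.15. The iron-sulfur subunit Sdhb had -0.71 ± 0.29 in the wild type, which did not pass (edgeR's quasi-likelihood test, adjusted p = 0.0665), and -1.11 ± 0.29 in the knockout, which did (adjusted p = 0.00713). The other anchor, Sdhc, had -0.47 ± 0.25 and -0.79 ± 0.25, called in the knockout alone and not once knockout on chow number 4 was left out (-0.39). Without the 3 libraries that stand apart Sdhc was called lower in the knockout.

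Sdha, the flavoprotein that oxidises succinate, was called in neither genotype. It held 167, 189, 153 and 245 CPM in the wild type on chow and 205, 181, 219 and 200.3 on MCD. For the knockout they were 229, 183, 203 and 229 CPM on chow and 177, 206, 183 and 201 on MCD. The groups overlapped in both, with log2 folds of 0.09 ± 0.16 and -0.14 ± 0.16. With library totals alone Sdha was called higher in both (0.63 and 0.60).

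Complex III had 4 of 8 genes lower in the wild type (median -0.95) and 5 of 8 in the knockout (median -0.82), and the calls divided by role. The 5 small subunits had 4 lower (median -1.11) and 5 lower (median -1.04). The 3 large ones, the core proteins Uqcrc1 and Uqcrc2 and the Rieske iron-sulfur protein Uqcrfs1, had 0 of 3 lower in either genotype, with medians of -0.24 and -0.46. That division was not tested as such. Without the 3 libraries the large subunits had 0 of 3 lower in the wild type (median -0.09) and 3 of 3 in the knockout (median -0.36).

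Uqcrb, a small subunit near the ubiquinone site, held 101, 99.8, 161 and 124 CPM in the wild type on chow and 62.2, 49.2, 63.9 and 49.4 on MCD. In the knockout it held 148, 119, 122 and 97.7 CPM on chow and 72.5, 54.4, 57.9 and 51.1 on MCD. The groups did not overlap, with log2 folds of -1.11 ± 0.19 (edgeR's quasi-likelihood test, adjusted p = 4.09e-04) and -1.04 ± 0.19 (adjusted p = 5.53e-04). Uqcrq and Uqcr10 were lower by 2.49-fold and 2.33-fold in the wild type and by 2.24-fold and 1.86-fold in the knockout. Uqcrh, the hinge protein that binds cytochrome c1, had -0.83 ± 0.20 and -0.75 ± 0.20. Uqcr11 passed in the knockout only (-1.15 ± 0.41, beside -1.07 ± 0.41 in the wild type).

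Uqcrc2 held 125, 133, 104 and 210.3 CPM in the wild type on chow and 132, 124, 141 and 126 on MCD. The knockout held 173, 151, 169 and 147 CPM on chow and 153, 134, 119 and 139 on MCD. Its wild-type MCD libraries lay inside the range of the chow libraries. The log2 folds were -0.14 ± 0.18 and -0.23 ± 0.18 for Uqcrc2, -0.24 ± 0.23 and -0.46 ± 0.23 for Uqcrc1, and -0.35 ± 0.19 and -0.46 ± 0.19 for Uqcrfs1 (wild type, then knockout).

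Complex IV, cytochrome c oxidase, had 8 of 10 genes lower in each genotype, with medians of -0.87 and -0.92. Cox4i1, its largest nuclear subunit, held 344, 302, 446 and 247 CPM in the wild type on chow and 226, 200.0, 230.0 and 204 on MCD. Knockout libraries were at 314, 299, 272 and 252 CPM on chow and 233, 206, 229 and 209 on MCD. The groups did not overlap in either genotype, with log2 folds of -0.64 ± 0.17 (edgeR's quasi-likelihood test, adjusted p = 0.00879) and -0.37 ± 0.17, the latter not called (adjusted p = 0.0839). Cox5a and the zinc-binding Cox5b were called in both, with -0.63 ± 0.15 and -0.90 ± 0.18 in the wild type and -0.71 ± 0.15 and -0.70 ± 0.18 in the knockout. Cox8a, the isoform found in most tissues, had -0.68 ± 0.19 and -0.76 ± 0.19.

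The small membrane-spanning subunits Cox6c, Cox7a2, Cox7b and Cox7c had larger falls and wider errors. Cox7b had the lowest log2 fold of all 73 genes in the wild type. It held 163, 207, 284 and 439 CPM in the wild type on chow and 81.6, 66.1, 95.5 and 70.8 on MCD. The levels in the knockout were 275, 191, 229 and 1828 CPM on chow and 292, 80.1, 79.7 and 68.9 on MCD. As for Ndufa4, the library labelled knockout on chow number 4 was far above the rest and the library labelled knockout on MCD number 1 was at the level of chow. The log2 folds of -1.80 ± 0.66 and -2.28 ± 0.67 (edgeR's quasi-likelihood test, adjusted p = 0.0444 and 0.0134) became -1.47 and -1.60 without the 3 libraries, with adjusted p = 1.79e-05 and 1.68e-05. With only knockout on chow number 4 left out, the knockout value of Cox7b was -0.83 and not called (adjusted p = 0.15), nor were Cox6c, Cox7a2 and Cox7c. With only wild type on chow number 4 left out, the wild-type value was -1.47 and not called, nor were the other 3.

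In the Cox4, Cox6a and Cox8 isoform sets of complex IV, the liver type was the one measured. Cox4i2, Cox6a2 and Cox8b, known from lung or from heart and muscle, had at most 8 counts in any library, and Cox6a1 was lower in the knockout only (-1.08 ± 0.39, beside -0.83 ± 0.39). The muscle markers Myh7, Mb and Actc1 were at 0 in every library. Cox6b1 and Cox7a1 were not among the 80 matching symbols and were not analysed here. Cox7a2l, which is known to join complexes into supercomplexes, was called in neither genotype, at -0.39 ± 0.40 and -0.65 ± 0.40.

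Complex V, the ATP synthase, had 9 of 17 genes lower in the wild type (median -0.66) and 12 of 17 in the knockout (median -0.76). The catalytic part with its central stalk (Atp5a1, Atp5b, Atp5c1, Atp5d and Atp5e) had 0 of 5 lower in the wild type (median -0.38) and 2 of 5, Atp5d and Atp5e, in the knockout (median -0.42). The 3 genes of the membrane ring, Atp5g1, Atp5g2 and Atp5g3, which encode the same mature protein, were all lower in both (medians -0.81 and -0.92). The peripheral stalk and other membrane subunits had 6 of 7 lower (median -1.24) and 7 of 7 (median -1.28). Atp5s and Atp5sl, which are not structural subunits of the synthase, were called in neither.

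Atp5j, coupling factor 6 of the peripheral stalk, held 122, 127, 191 and 171 CPM in the wild type on chow and 69.1, 57.0, 74.1 and 58.7 on MCD. For the knockout they were 178, 140.1, 152 and 258 CPM on chow and 114, 63.5, 65.6 and 56.1 on MCD. The groups did not overlap, and the log2 folds were -1.24 ± 0.25 (edgeR's quasi-likelihood test, adjusted p = 0.00142) and -1.28 ± 0.25 (adjusted p = 9.16e-04). The membrane subunits Atp5i and Atp5j2 were 2.67-fold and 2.83-fold lower in the wild type and 2.71-fold and 2.81-fold lower in the knockout. Of the ring genes, Atp5g1 had -0.82 ± 0.25 and -1.16 ± 0.25, Atp5g2 -0.66 ± 0.17 and -0.58 ± 0.17, and Atp5g3 -0.81 ± 0.19 and -0.92 ± 0.19. The peripheral stalk subunits Atp5h and Atp5o were called in both genotypes, and Atp5f1 passed in the knockout only (-0.50 ± 0.18, beside -0.21 ± 0.18).

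Atp5b, the catalytic beta subunit, held 1152, 1251, 1244 and 1594 CPM in the wild type on chow and 1054, 942, 1199 and 1029 on MCD. In the knockout it held 1576, 1343, 1355 and 1800.1 CPM on chow and 1394, 999, 1001 and 1137 on MCD. The groups overlapped, with log2 folds of -0.31 ± 0.17 and -0.42 ± 0.17 (edgeR's quasi-likelihood test, adjusted p = 0.172 and 0.062). The alpha subunit Atp5a1 had -0.05 ± 0.14 and -0.26 ± 0.14, with adjusted p = 0.803 and 0.152, and the gamma subunit Atp5c1 had -0.38 ± 0.21 and -0.34 ± 0.21. With library totals alone Atp5a1 was called higher in both genotypes, at 0.48 and 0.47.

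**Figure D3:**
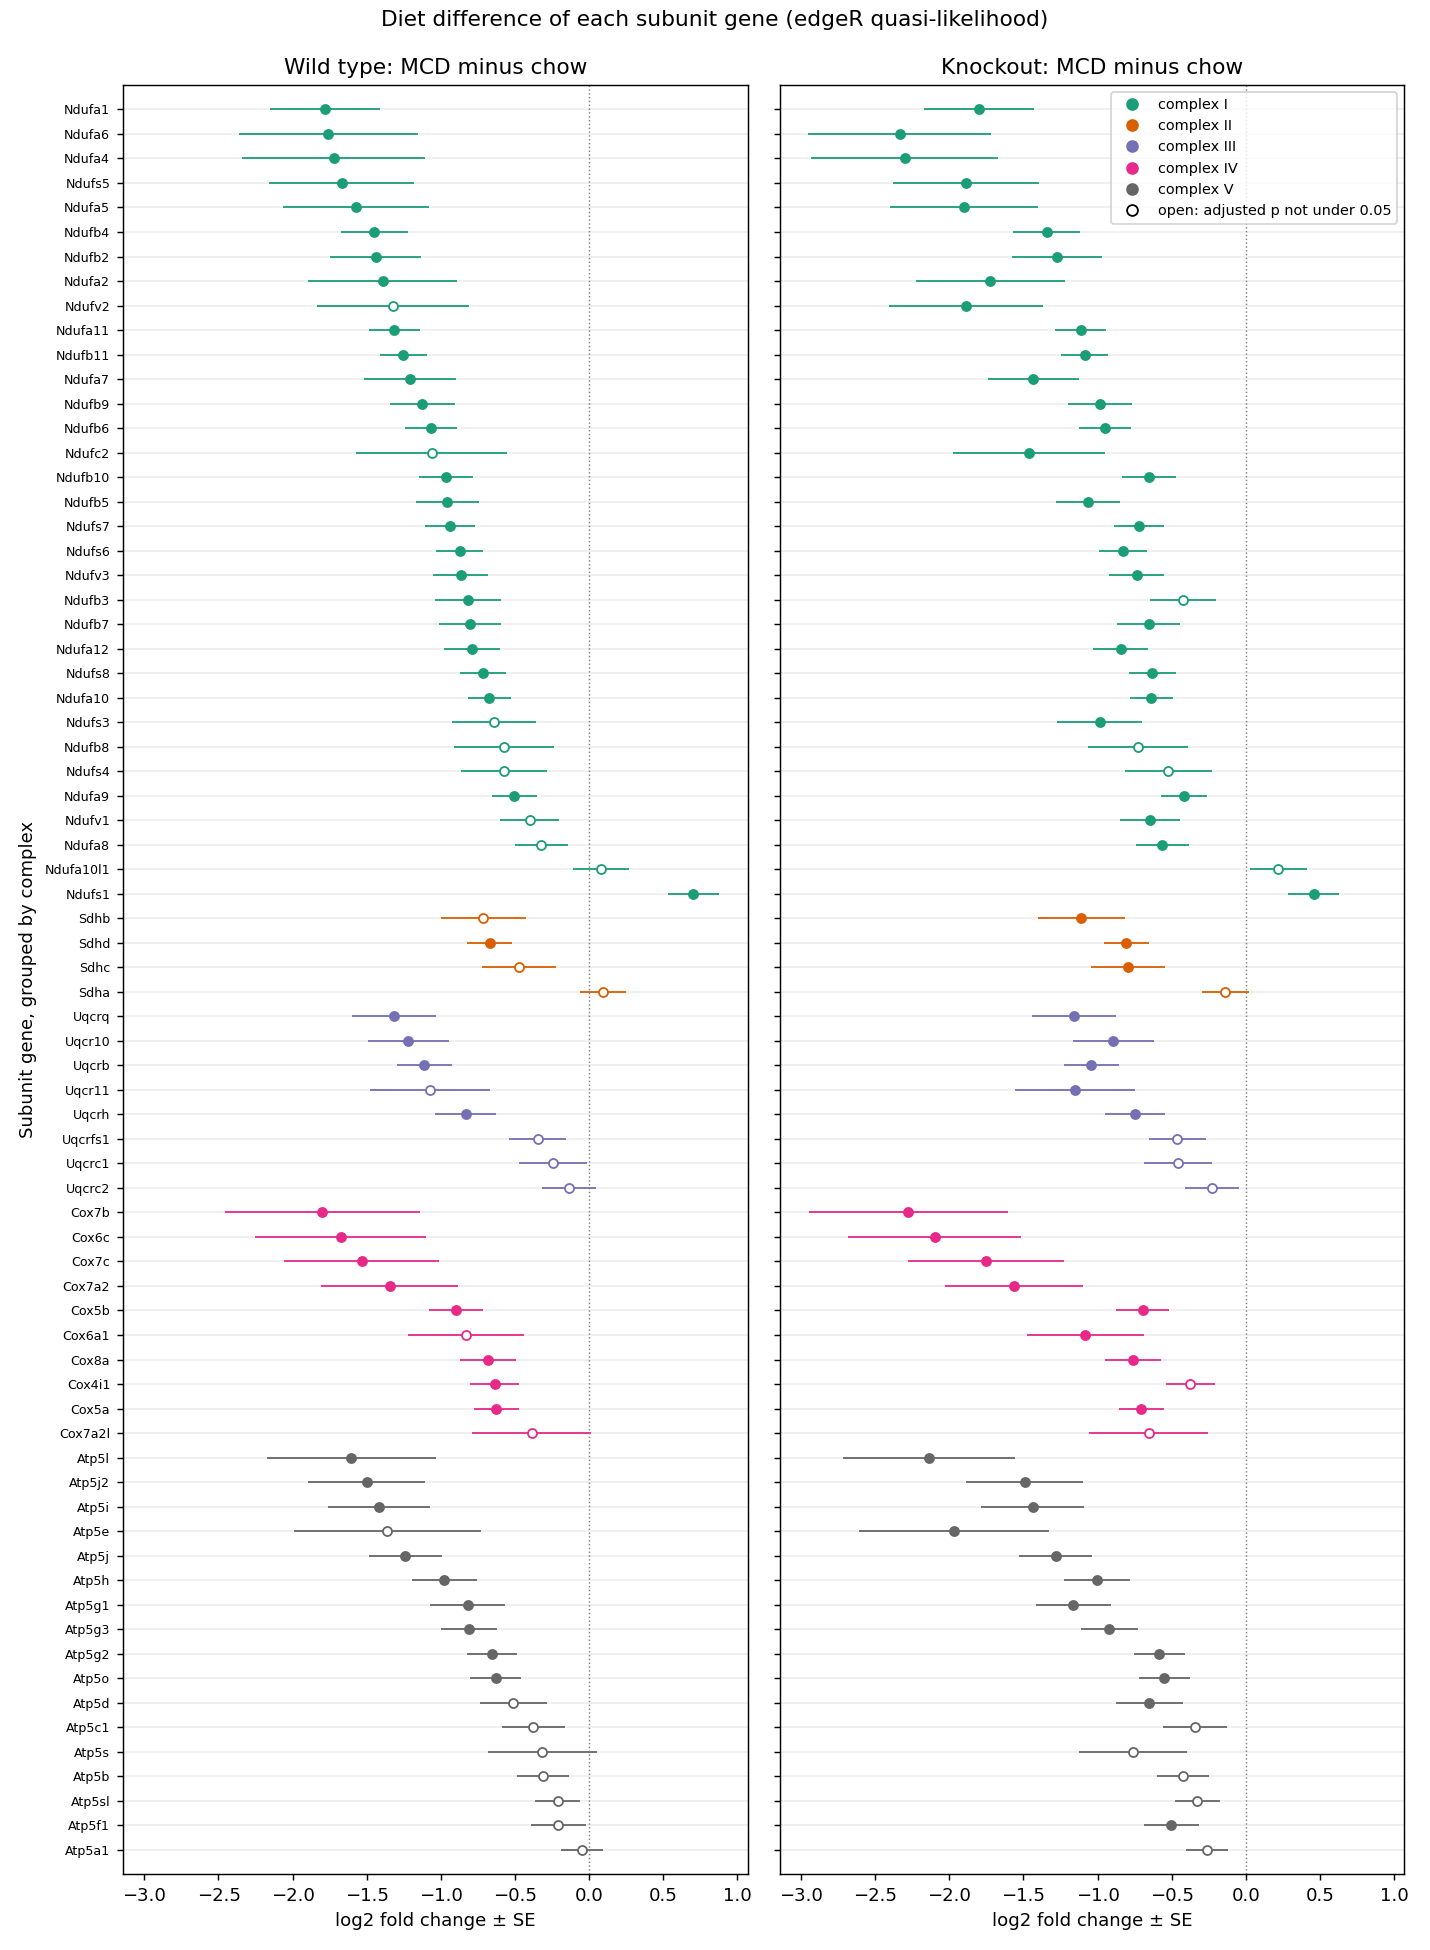
Log2 fold change of MCD against chow (x axis) for 72 of the 73 subunit genes (y axis, by complex and by the wild-type value) in the wild type (left) and the knockout (right); bars are ± SE, filled points have an adjusted p under 0.05. Most points lie left of 0 in both panels, and Ndufs1 lies right of 0 and is called in both.

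The 14 genes lower in neither genotype were Ndufa10l1, Ndufb8, Ndufs1, Ndufs4, Sdha, Uqcrc1, Uqcrc2, Uqcrfs1, Cox7a2l, Atp5a1, Atp5b, Atp5c1, Atp5s and Atp5sl. Cox4i1 and Ndufb3 were lower in the wild type only by call. Atp5d, Atp5e, Atp5f1, Cox6a1, Ndufa8, Ndufc2, Ndufs3, Ndufv1, Ndufv2, Sdhb, Sdhc and Uqcr11 were lower in the knockout only by call. None of these differences between genotypes was itself called.

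Leaving out 1 library at a time tested how far these calls rest on single libraries. This was followed for the genes named by the rule given in the section on processing. Of 32 such genes called in the wild type 26 kept the call throughout. In at least 1 case 6 lost it: Atp5g1, Cox6c, Cox7a2, Cox7b, Cox7c and Ndufa4. Of 40 in the knockout 24 kept it. The 16 others included 15 that lost it without knockout on chow number 4, among them Atp5e (-0.61), Cox6a1 (-0.47), Uqcr11 (-0.48) and Ndufa8 (-0.45). Over all 73 genes 39 were called in the knockout without that library, beside 58 with it. The share of all genes tested that were called lower in the knockout fell too, from 18.5% to 14.6%. In the knockout 9 named genes lost it without number 2 on MCD, 9 without number 4 and 7 without number 3. With the 3 libraries that stand apart left out together, all 48 calls in the wild type and all 58 in the knockout were kept. Of all genes tested 24.7% and 23.8% were then called lower.

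Whether the genotype changed the subunit genes was asked on each diet and for the difference of the diet effects. On chow 0 of 73 genes were called (0.00896% of all genes tested), with 2 at an unadjusted p under 0.05. These were Sdhb (0.62 ± 0.29, edgeR's quasi-likelihood test, adjusted p = 0.478) and Ndufa8 (0.38 ± 0.18, adjusted p = 0.478). The third smallest p was that of Atp5e, at 1.28 ± 0.63, whose knockout chow libraries held 271, 205, 249 and 1743 CPM beside 163, 188, 274 and 389.6 in the wild type. The median knockout minus wild type on chow was 0.25 with all libraries and 0.15 without the 3. Without them 0 subunit genes were called, where 4.6% of all genes tested were called. At an unadjusted p under 0.05 there were 14, and the share of all genes at that looser threshold is not given here. No subunit gene had non-overlapping groups between genotypes on chow (2.59% of all genes tested were wholly lower and 1.75% wholly higher).

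On MCD 0 of 73 were called by edgeR's quasi-likelihood test (0% of all genes tested), 0 at an unadjusted p under 0.05, and DESeq2 called 0 as well, as it did on chow and for the difference. Knockout minus wild type ranged from -0.11 (Ndufa10l1) to 0.73 (Cox7b) with all libraries and from -0.17 (Atp5s) to 0.16 (Ndufb3) without the 3, where again 0 were called (0.00891% of all genes tested). The smallest p was that of Uqcrq, at 0.37 ± 0.28, followed by Ndufb2 and Atp5j2. No groups were free of overlap (0.376% and 0.421% of all genes tested). The difference of the diet effects was called for 0 genes (0% of all genes tested), with 0 at an unadjusted p under 0.05. Without the 3 libraries it was called for 0 (0.178% of all genes tested). There 9 had an unadjusted p under 0.05, and the share of all genes at that looser threshold is not given here. Its smallest p belonged to Ndufb3, at 0.40 ± 0.32, followed by Ndufb10 and Atp5f1. A p that misses the threshold does not show that the genotypes are alike. The values without the 3 libraries rest on 3 knockout libraries per diet, all with low Tspo.

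The pair of libraries labelled knockout with Tspo at the level of the wild type on chow stood apart in the subunit genes themselves. Number 4 of the wild type on chow did so far less. Each library was compared with the mean of the other 3 of its group. Knockout on chow number 4, by its label, had a median displacement of 0.56 log2 units over the 73 genes (0.00 over all genes tested) and was above its group by more than 1 in 28 genes (38.4%, beside 13.8% of all genes). Knockout on MCD number 1, by its label, had 0.63 (-0.06 over all genes) and 24 genes above 1 (32.9%, beside 6.72%). Number 4 of the wild type on chow had 0.33 (-0.01) and 10 genes above 1 (13.7%, beside 8.50%). By Dixon's criterion for 4 samples it was the outlier of its group in 2 of 73 genes, beside 17 for the first of these libraries and 18 for the second. Its mean over complex I, 0.20, equalled that of number 3 of its group to 2 decimals.

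Cox7b was among the genes above 1 in all 3 libraries. It was displaced by 3.00, 1.94 and 1.05 in the library labelled knockout on chow number 4, that labelled knockout on MCD number 1 and wild type on chow number 4. Atp5e, the epsilon subunit, was displaced by 2.86, 1.94 and 0.94, and Ndufa6 by 2.78, 1.75 and 0.98. At the other end stood Atp5c1, the gamma subunit of complex V, at -1.02, -0.29 and -0.47, and Ndufs1, at -0.59, -0.41 and 0.16. Across the 73 genes, which are not independent, Pearson's r between the first 2 of these libraries was 0.91 (Spearman's rho 0.89), and between the first and wild type on chow number 4 it was 0.82 (0.81). Over all genes tested, deviations from the group means correlated at 0.53 and 0.51 for the same pairs. The shared pattern was thus not confined to the subunit genes. By complex, the median displacement in the library labelled knockout on chow number 4 was 1.64 for complex IV, 0.83 for II, 0.65 for V, 0.42 for III and 0.41 for I.

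**Figure D4:**
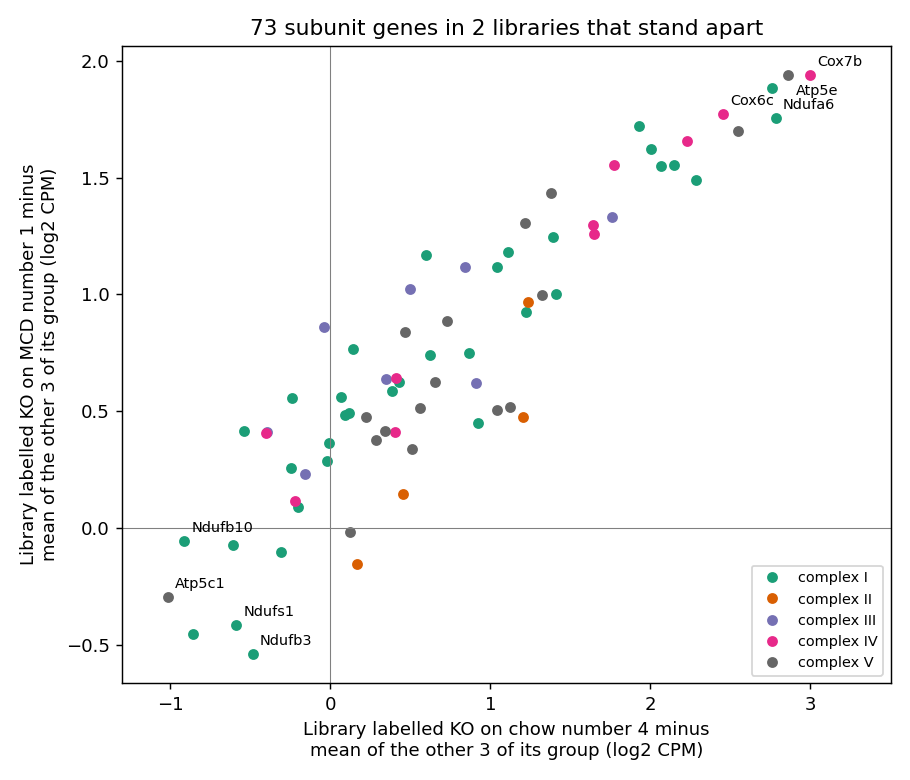
Displacement of each of the 73 subunit genes from the mean of the other 3 libraries of its group (log2 CPM), in the library labelled knockout on chow number 4 (x axis) and that labelled knockout on MCD number 1 (y axis), coloured by complex. Cox7b, Atp5e and Ndufa6 lie at the upper right and Atp5c1, Ndufs1 and Ndufb3 at the lower left, with r = 0.91 over the genes.

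Many subunit messages are short, so the libraries were also set against an index made from genes that are no members. It is the mean log2 CPM of 24 genes known for long messages minus that of 32 known for short ones, such as small nuclear ribonucleoprotein and RNA polymerase subunits. Relative to the wild type on chow, the 3 libraries had an index of -0.31 (wild type on chow number 4), -0.98 (labelled knockout on chow number 4) and -0.47 (labelled knockout on MCD number 1). The other chow libraries were at -0.21 to 0.16 and the other MCD libraries at 1.06 to 1.57, so the index moved with the diet. The short genes of the index had 10 of 32 lower in the wild type (median -0.58) and 12 of 32 in the knockout (median -0.58). The long genes had 14 of 24 and 13 of 24 higher (medians 0.67 and 0.71).

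With the index as a covariate in the same edgeR fit the count of lower subunit genes dropped to 13 in the wild type (9.51% of all genes tested) and 11 in the knockout (7.61%), with medians of -0.17 and -0.22. The gap to the median of all genes shrank to -0.20 and -0.25. In the wild type Cox7a2l, which was not called before, was then higher (0.94; 9.67% of all genes tested were higher), and in the knockout none was (9.33%). Diet and index cannot be told apart by such a fit, since the MCD libraries other than the library labelled knockout on MCD number 1 share no index range with chow. Ndufb11, Ndufa11, Ndufb4, Ndufb6 and Uqcrb were called lower in the wild type under every alternative tried, and Ndufb11, Ndufb4 and Atp5j were in the knockout. The value of Ndufb11 with the index was -0.94 in wild-type rats and -0.80 in knockout rats, and that of Cox7b was 0.38 and 0.04, neither called.

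**Figure D5:**
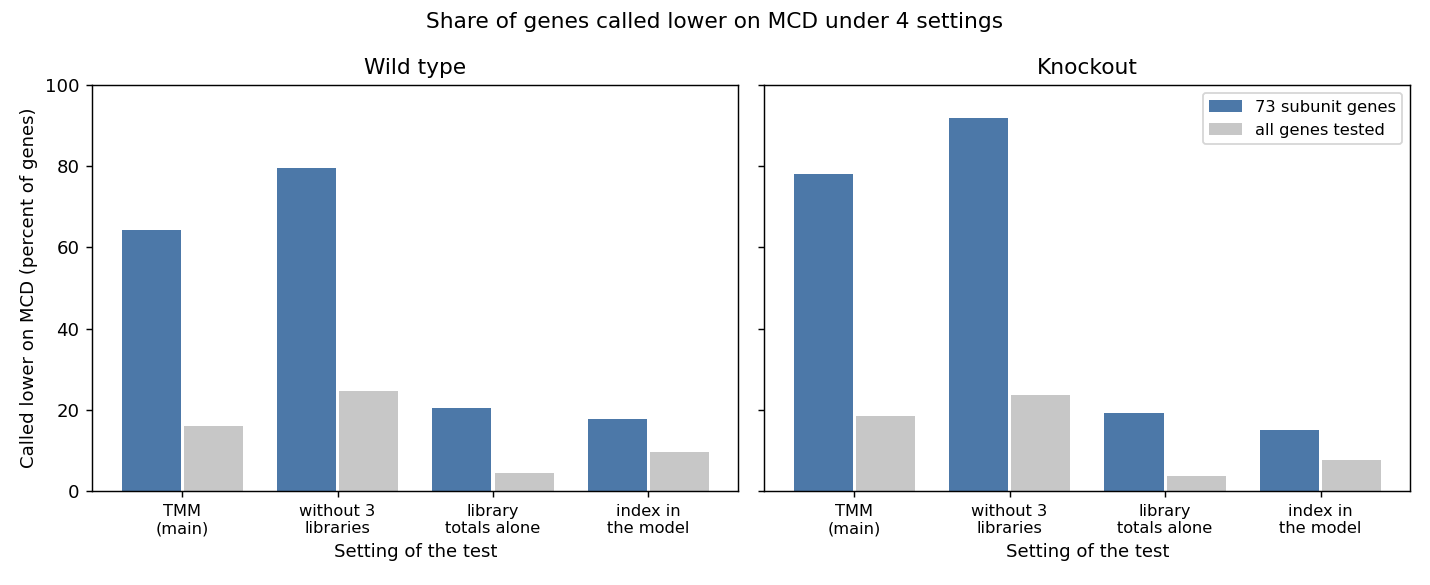
Percent of genes called lower on MCD (y axis) among the 73 subunit genes (blue) and all genes tested (grey) under 4 settings of the test (x axis), in the wild type (left) and the knockout (right). The share of subunit genes called lower is above that of all genes in each setting, from 79.5% beside 24.7% without the 3 libraries to 17.8% beside 9.51% with the index in the model in the wild type.

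Cell type markers moved with the diet as well, on the same scale relative to other genes. Of 10 hepatocyte markers 5 were lower and 0 higher in each genotype, and their summed level was 180533 to 247406 CPM on chow and 104351 to 145665 on MCD. Of 9 markers of stellate cells and fibroblasts 2 were higher in wild-type rats and 3 in knockout rats, and of 5 bile duct markers 2 in each, with summed levels of 16.9 to 39.0 CPM on chow and 72.5 to 131.5 on MCD. The stellate cell and fibroblast markers summed to 242 to 501.8 CPM on chow and 447 to 1277 on MCD, ranges that overlap. Of 9 macrophage markers 3 were higher and 2 lower in each. All 6 red blood cell markers were lower in each, at 599.7 to 5066 CPM on chow and 99.9 to 271 on MCD. The part of cell composition in the falls was not tested.

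Other genes of the pathway were followed through lists. Of all genes tested 15.9% were lower and 18.2% higher in the wild type, and 18.5% and 21.9% in the knockout. Of 8 further subunits or close partners of the complexes 3 were lower in wild-type rats and 4 in knockout rats. Ndufab1, the acyl carrier protein of complex I, was among them (-0.76 ± 0.20 and -0.83 ± 0.20). Cyc1, the cytochrome c1 subunit of complex III, was called in neither (-0.27 ± 0.31 and -0.56 ± 0.31), and neither was cytochrome c itself, Cycs (-0.54 ± 0.27 and -0.52 ± 0.27).

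Assembly factors, which build the complexes and are not part of them, gave calls in both directions. For complex I 4 of 13 were lower and 1 higher in the wild type and 5 lower and 1 higher in the knockout. The one higher was Ndufaf1 (0.62 ± 0.18 and 0.51 ± 0.18). For complex IV 8 of 17 were lower and 2 higher in the wild type and 7 lower and 1 higher in the knockout, where Lrpprc, which stabilises mitochondrial messages, was higher in both (0.92 ± 0.23 and 0.96 ± 0.23). For complex III 1 of 5, Uqcc2, and for complex V 2 of 4, Fmc1 among them, were lower in each genotype, and the 1 factor measured for complex II, Sdhaf2, was called in neither. The medians of these assembly lists ran from -0.54 to -0.16 over the genotypes, and with library totals alone, which shift all genes upward, from 0.14 to 0.57.

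Regulators of mitochondrial genes gave few calls, in both directions. Of 13 measured, 2 were higher and 1 lower in the wild type (median 0.19), beside 18.2% and 15.9% of all genes tested. In the knockout 2 were higher and 2 lower (median -0.30, and 0.45 with library totals alone), beside 21.9% and 18.5%. Counts this small do not set the regulators apart from other genes. Ppargc1a, the coactivator known to drive mitochondrial gene expression, was at 0.114 to 1.24 CPM on chow and 3.48 to 9.00 on MCD. It was higher by 2.93 ± 0.49 in wild-type rats and 3.83 ± 0.54 in knockout rats on the log2 scale (edgeR's quasi-likelihood test, adjusted p = 3.66e-04 and 8.60e-05). Nrf1 was higher in the wild type (0.68 ± 0.24) and not called in the knockout (0.12 ± 0.24), and Gabpa was called in neither (-0.07 ± 0.27 and -0.48 ± 0.27). Tfam, which packages and transcribes mitochondrial DNA, was lower in the knockout (-1.07 ± 0.31) and did not pass in the wild type (-0.75 ± 0.31).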

How the data were processed

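Poly(A) RNA of rat liver was sequenced from stranded mRNA libraries, per the labels' protocols, in 4 groups of 4 libraries. The authors deposited expected counts per gene. Tools listed in the submitters' processing notes, with no role, are Bowtie2 2.1.0 and RSEM 1.2.15, and the build is rn6. A normalised signal was deposited too. It is the rounded count multiplied by a constant of each library (202017 values, relative tolerance 1e-06). Annotation and counting strand: not given in the sources used here. Expected counts share reads among close copies, and transcript lengths were not available here, so levels are not compared between genes.

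Expected counts were rounded to whole numbers and fitted in R 4.3.3 with edgeR 4.0.16: TMM factors, filterByExpr (11162 of 17168 genes), 1 term per group over 16 libraries, robust quasi-likelihood tests, Benjamini-Hochberg adjustment over all genes tested in each of 5 contrasts, calls under 0.05. CPM are relative to TMM-scaled totals (8745756 to 15762660 counts before scaling), and 71 of the 73 genes had at least 100 counts in every library. Displacements use log2 CPM with a prior count of 2. Medians per complex and list are descriptions with no test. The labels do not say that replicate numbers pair the libraries. Alternatives were other scaling (DESeq2 size factors, upper quartile, totals alone), no filter, DESeq2 1.42.0, limma 3.58.1 on log2 of the deposited signal plus 1, a replicate block, leaving out libraries, and a message-length index. The scripts were tested on simulated data.

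Named genes are, per diet contrast and complex, the called members (5 at most) of smallest p and those moving against the rest, the catalytic and scaffold subunits, the isoform sets, the 3 smallest p per genotype contrast, and up to 3 called genes per list. Ndufa1, Ndufa6, Ndufa10, Ndufa10l1 and Atp5d are named outside this rule, after their values were seen. 1 member is counted and is not reported singly here. Lists cover other subunits, assembly factors per complex, regulators, citric acid cycle, carriers and import, antioxidants, mitochondrial and cytosolic ribosomes, proteasome, the index genes and cell type markers. Members and lists were chosen with earlier results of these data known. RefSeq tables of GRCr8 gave promoters and names, and no coordinate of another build was used.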

Additional observations from a re-analysis of the deposited data

Results flagged for a closer look

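In the knockout on MCD the library labelled number 1 was far from the other 3 of its group in the mean log2 CPM of 4 of the 5 complexes, by a gap that exceeds Dixon's 95% critical value for 4 samples. Relative to the wild type on chow its mean was -0.22 for complex I, -0.09 for complex II, 0.09 for complex IV and -0.03 for complex V, where the other 3 libraries of the group lay between -0.98 and -0.87 (I), -0.47 and -0.43 (II), -1.12 and -0.93 (IV), and -0.85 and -0.72 (V). Chance flags about 1 in 20 groups, and the complexes share the same libraries, so the 4 are not independent. That library also held Tspo at 4.17 CPM and had the length index of a chow library. Its summed markers of hepatocytes (109298 CPM), bile duct (75.9) and red blood cells (154) lay outside the chow ranges, with the MCD libraries. Its sums for the other marker lists lay within the chow ranges, which the MCD ranges overlap. The part of any of these in the subunit values was not tested. Among the 73 genes taken singly, the same criterion picked the library labelled knockout on MCD number 1 as the high one for 18 and that labelled knockout on chow number 4 as the high one for 15 and the low one for 2.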

How the results depend on the processing

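The diet comparisons kept a majority of called members lower under DESeq2 size factors (48 members called for the wild type, 58 for the knockout), upper quartile factors (49 and 54), no filter (41 and 55), DESeq2 (49 and 60) and limma on the deposited signal (49 and 56). Of all genes tested, 15.9% (wild type) and 18.5% (knockout) were called lower in the main fit. These shares were 16.1% and 19.9% with DESeq2 size factors, 14.8% and 15.1% with upper quartile factors, and 18.1% and 21.5% with DESeq2. Those with no filter and with limma are not given here. Leaving out each library in turn gave 36 to 58 called members for the wild type (48 with all) and 39 to 65 for the knockout (58 with all); the lowest came without wild type on chow number 3 or on MCD number 2, and without knockout on chow number 4. With library totals alone 19 (wild type) and 20 (knockout) members were called, with medians of -0.29 and -0.10, and with the index in the model 14 and 11, with medians of -0.17 and -0.22; the first shifts the level of all genes by construction, and for the second the cause was not tested. Over 5 contrasts, no alternative called a member between genotypes or for the difference of the diet effects.

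The sign was followed for the 50 members named by the rule given above, not for the rest. Among the 50, those called in one fit and of the other sign in another were found only under these 2 settings. With library totals alone they were, for the wild type, Atp5a1 at 0.48, and for the knockout Ndufa8 at 0.17, Ndufb10 at 0.049, Ndufs8 at 0.088, Ndufv1 at 0.11, Sdha at 0.60, Uqcrc2 at 0.49, Cox5a at 0.027, Cox5b at 0.012, Atp5a1 at 0.47, Atp5f1 at 0.23 and Atp5g2 at 0.15. With the index they were, in the wild type, Ndufa4 at 0.32, Cox6c at 0.27, Cox7a2 at 0.20, Cox7a2l at 0.94, Cox7b at 0.38 and Cox7c at 0.23, and the medians of complex II at 0.17 and complex IV at 0.22. In the knockout they were Uqcr11 at 0.17, Cox6a1 at 0.16, Cox7b at 0.044, Cox7c at 0.0073 and Atp5e at 0.23. The replicate block gave 47 (wild type) and 52 (knockout) called members. Deviations from group means correlated at -0.38 to 0.51 between same-numbered libraries and at -0.44 to 0.53 between libraries of different number. Whether the numbers pair the libraries cannot be told from these ranges. Depth limits few members: 71 of 73 had at least 100 counts in every library.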

Other observations

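Neighbouring mitochondrial pathways moved in both directions on the MCD diet. Of 12 citric acid cycle genes 3 were higher and 3 lower in the wild type, against 3 and 4 in the knockout, with Ogdh, of the oxoglutarate dehydrogenase complex, higher (1.53 ± 0.29 and 1.64 ± 0.30 on the log2 scale, wild type then knockout) and Sucla2, of succinyl-CoA synthetase, lower (-0.79 ± 0.27 and -0.95 ± 0.27). Of 21 carriers, import proteins and membrane organisers 7 were higher and 2 lower in the wild type, against 5 and 4 in the knockout. Slc25a4, an ADP/ATP carrier, was higher in both (0.84 ± 0.21 and 0.95 ± 0.21), and Slc25a5, the carrier's other main form in liver, was called in neither (-0.01 ± 0.15 and -0.20 ± 0.15). Of 8 antioxidant genes 1 was lower in wild-type rats and 4 in knockout rats, Prdx3 of the mitochondrial matrix being at -0.52 ± 0.20 (not called) and -0.66 ± 0.20 (called). With library totals alone no gene of these 3 lists was lower in either genotype, and 6 and 7 (citric acid cycle), 13 and 14 (carriers and import) and 1 and 1 (antioxidants) were higher. On that scale 43.1% and 57.8% of all genes tested were higher.

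Other large assemblies of small proteins gave different values. Of 69 mitochondrial ribosome genes 19 were lower in the wild type, 26 in the knockout and none higher (medians -0.41 and -0.34), but with library totals alone none was lower and 11 and 26 were higher (medians 0.14 and 0.40). Of 41 proteasome genes 16 and 30 were lower and none higher (medians -0.49 and -0.71), against 1 and 1 lower and 4 and 3 higher with totals alone (medians 0.03 and 0.01). Of 81 cytosolic ribosome genes, whose messages are also short, 3 were higher and 0 lower in the wild type and 9 higher and 1 lower in the knockout (medians -0.16 and 0.01), and 28 and 50 were higher with totals alone (medians 0.38 and 0.73). The subunit genes' own medians stayed below 0 on that scale, at -0.29 and -0.10. Of the remaining marker lists, 1 of 4 lymphocyte markers was higher in each genotype, 0 of 2 neutrophil markers were called in the wild type and 1 was lower in the knockout (Mpo was at 0 in every library), and of 6 endothelial markers 1 was higher and 1 lower in the wild type and 2 were higher in the knockout. The 1 muscle or brown fat gene tested was called in neither.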
